A study of Mus musculus with 8 samples.

Results

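The 31 genes described here encode the proteins that bring pyruvate into mitochondria, oxidise or carboxylate it, turn the tricarboxylic acid (TCA) cycle and exchange its keto acids with amino acids. They were chosen by name from a list, and all 31 were found among the 43629 genes of the count table and passed the filter on low counts. Their expression was measured by sequencing of polyadenylated RNA in 3T3-L1 cells, a mouse pre-adipocyte line that is differentiated into adipocytes in culture, so that all cultures are repeats of 1 cell line. On day 8 of differentiation, 4 groups of 2 cultures each were kept for 24 h, either untreated, with A66 at 2 μM, with palmitate at 0.5 mM, or with palmitate at 0.5 mM plus A66 at 2 μM. A66 is a small molecule that selectively blocks p110α, a catalytic subunit of PI3K that passes on the insulin signal, and palmitate is a saturated fatty acid, given here bound to serum albumin at a molar ratio of 3 to 1. The labels call the controls untreated and name no albumin-only culture, whereas the methods of the study describe a vehicle and another A66 dose for the cultures without palmitate. A66 acts on a protein, and no mRNA was used here to check which cultures had received it. Every direction below therefore rests on the treatment labels.

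Pyruvate enters mitochondria through a carrier made of MPC1 and MPC2. The pyruvate dehydrogenase complex then turns it into acetyl-CoA, while pyruvate carboxylase turns it into oxaloacetate, and citrate synthase joins both products at the entry of the cycle. The complex is switched off when pyruvate dehydrogenase kinases phosphorylate it and switched on again by its phosphatases. In adipocytes, citrate made by this route is exported to the cytosol as the carbon source for fatty acid synthesis, and insulin is known to stimulate that synthesis. Aspartate and glutamate transaminases interconvert cycle intermediates with amino acids and, with the malate dehydrogenases, carry reducing equivalents across the inner membrane.

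Promoters of these genes were read from RefSeq (GRCm38.p6) as windows of 300 bases, from 250 before to 50 after an annotated start site. A window was found for 29 of the 31 genes, 39 windows in all, with Pdp1 and Idh3a lacking one. The windows of 2 genes are shown because Ogdh, which encodes the first subunit of the oxoglutarate dehydrogenase complex, is the gene of the list that passed the test as lower with A66 both without and with palmitate, and Got1, the cytosolic aspartate transaminase, is the gene that passed as higher with palmitate both without and with A66. Of the 6 windows of Ogdh, the first shown spans chr11:6291347-6291646 and the second chr11:6292308-6292607, both on the plus strand, and that of Got1 spans chr19:43524556-43524855 on the minus strand, each printed 5′ to 3′. Capitals mark the cAMP response element TGACGTCA in the first window, and the E-box CACGTG and the NRF1 motif GCGCATGCG in the second. No match was found in the window of Got1.
Ogdh, first window: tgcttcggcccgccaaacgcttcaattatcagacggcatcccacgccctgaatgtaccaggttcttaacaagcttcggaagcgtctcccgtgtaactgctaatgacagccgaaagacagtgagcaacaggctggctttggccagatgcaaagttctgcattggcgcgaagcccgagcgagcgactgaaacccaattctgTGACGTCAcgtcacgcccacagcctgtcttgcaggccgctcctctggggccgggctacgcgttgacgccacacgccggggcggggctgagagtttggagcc
Ogdh, second window: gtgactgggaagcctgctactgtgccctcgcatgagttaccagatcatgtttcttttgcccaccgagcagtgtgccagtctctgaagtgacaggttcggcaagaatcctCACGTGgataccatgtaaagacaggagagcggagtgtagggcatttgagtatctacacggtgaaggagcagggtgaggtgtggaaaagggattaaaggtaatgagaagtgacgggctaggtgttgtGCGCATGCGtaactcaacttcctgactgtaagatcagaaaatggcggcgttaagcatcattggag
Got1: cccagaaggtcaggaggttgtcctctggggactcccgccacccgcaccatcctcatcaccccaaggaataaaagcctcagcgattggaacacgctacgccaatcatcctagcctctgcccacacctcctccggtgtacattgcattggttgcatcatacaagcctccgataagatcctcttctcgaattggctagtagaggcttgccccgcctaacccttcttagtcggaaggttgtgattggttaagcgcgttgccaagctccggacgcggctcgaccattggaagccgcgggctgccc

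In all, 5 motifs were searched on both strands. The cAMP response element began at position -51 from the start site in the first Ogdh window. The E-box began at -141 and the NRF1 motif at -15 in the second, and these matches did not overlap. The cAMP response element was held by 4 windows of the listed genes, 1 of Mdh2 and 3 overlapping windows of Ogdh that share a single site, and by 1.79% of all 32851 windows. The E-box was held by 6 windows, 3 of Ogdh, of which 2 share a site, and 1 each of Pcx, Pdk2 and Pdp2, and by 7.15% of all windows. The NRF1 motif was held by 2 overlapping windows of Ogdh that share a site, and by 1.75% of all windows. No window of the listed genes held the FOXO motif GTAAACA, found in 3.65% of all windows, or the estrogen-related receptor motif TCAAGGTCA, found in 0.423%. These matches describe letters in a window and say nothing about binding.

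The 8 libraries held from 42247091 to 57529803 counts, and the listed genes took from 0.709% to 0.781% of them. Levels are given as CPM (counts relative to the library total after TMM scaling), and 3 counts, the smallest amount taken as detectable, correspond to 0.0519 to 0.0706 CPM. This floor covers no error but that of counting. The least abundant gene of the list, Pdp2, had at least 956 counts in every library. The spread between replicates exceeded that of counting (mean chi-square for a gene, 6.15 to 8.99). Of the adipocyte markers Adipoq, Fabp4, Plin1, Cidec, Pparg, Lipe, Slc2a4 and Cebpa, all were expressed, and they summed to 7606 and 7788 CPM (untreated), 8228 and 7825 CPM (A66), 7037 and 7636 CPM (palmitate) and 6773 and 7446 CPM (both agents). The pre-adipocyte list, led by Col3a1 and Col1a1, summed to 4419 and 4178 CPM (untreated), 4352 and 4245 CPM (A66), 4329 and 4654 CPM (palmitate) and 3846 and 4100.1 CPM (both agents). Of its other members, Pdgfrb (191 to 219 CPM), Pdgfra (87.9 to 108 CPM) and Thy1 (26.8 to 33.3 CPM) were detected in every library, while Dlk1 was at 0 in all and Cd34 at 0.392 CPM or less. Macrophage markers summed to 0.277 CPM at most, with Adgre1 at 0 throughout. Transcripts of the mitochondrial genome took between 10.5% and 10.98% of the counts in the other 3 groups, and 11.4% and 11.8% in the libraries of palmitate plus A66, so that the last group stood above the others.

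To compare levels between genes, counts were set on a per-length scale (TPM, counts per transcript length as a part of their sum, from GENCODE M21 transcript lengths), and the values in untreated cells are means ± SD of 2 libraries. Pcx, pyruvate carboxylase, had the highest level of the list at 746 ± 4.45 TPM. Next came the malate dehydrogenases, cytosolic Mdh1 at 561 ± 33.8 TPM and mitochondrial Mdh2 at 557 ± 26.9 TPM, and citrate synthase, Cs, at 537 ± 8.83 TPM, which did not differ from one another beyond their spread. The cytosolic isocitrate dehydrogenase, Idh1, followed at 444 ± 8.52 TPM. Its mitochondrial NADP-dependent counterpart, Idh2, was at 277 ± 7.86 TPM.

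Within the pyruvate dehydrogenase complex, the catalytic subunits Pdha1 at 377 ± 2.77 TPM and Pdhb at 333 ± 9.26 TPM and the lipoamide dehydrogenase Dld at 302 ± 9.80 TPM stood above the acetyltransferase core Dlat at 77.3 ± 0.486 TPM and the binding protein Pdhx at 70.2 ± 1.04 TPM. Dld is also a subunit of the oxoglutarate dehydrogenase complex, whose other subunits were at 177 ± 1.86 TPM (Dlst) and 164 ± 2.74 TPM (Ogdh). The regulators of the complex were the least abundant. Among the kinases, Pdk2 was at 54.6 ± 4.45 TPM, Pdk4 at 35.5 ± 0.876 TPM, Pdk1 at 33.2 ± 0.834 TPM and Pdk3 at 24.4 ± 1.45 TPM. The phosphatases were at 18.6 ± 0.428 TPM (Pdp1) and 8.65 ± 0.0732 TPM (Pdp2), the lowest value of the list.

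Subunits of 1 enzyme were not at 1 level. The NAD-dependent isocitrate dehydrogenase subunits were at 359 ± 17.1 TPM (Idh3b), 288 ± 2.77 TPM (Idh3g) and 205 ± 0.449 TPM (Idh3a). Mpc1 was at 225 ± 19.6 TPM and its partner Mpc2 at 91.3 ± 13.9 TPM. Of the succinyl-CoA ligase subunits, the shared Suclg1 was at 209.6 ± 5.26 TPM, the ADP-dependent Sucla2 at 124 ± 8.88 TPM and the GDP-dependent Suclg2 at 81.9 ± 2.19 TPM. Fumarase, Fh1, was at 111 ± 4.14 TPM. Mitochondrial aspartate transaminase, Got2, was at 166 ± 7.34 TPM, glutamate dehydrogenase, Glud1, at 148 ± 1.08 TPM and the cytosolic transaminase Got1 at 83.8 ± 0.0689 TPM.

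The 31 genes moved little in any group, and most of their shifts with A66 were downward. Summed over the list, the untreated libraries stood at 7591 and 7709 CPM and those of A66 at 7465 and 7344 CPM. The palmitate libraries stood at 7632 and 7674 CPM, and those with both agents at 7119 and 7251 CPM. Both groups with A66 thus lay below both groups without it, in every library. Pcx alone took 1396 and 1382 CPM of the untreated sums. As a mean over genes, each counted equally, the log2 level relative to untreated cells was -0.03 and -0.05 (A66), 0.00571 and -0.00357 (palmitate) and -0.08 and -0.06 (both agents). In bulk RNA, fewer cells of a type and less RNA per cell cannot be told apart.

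**Figure D1:**
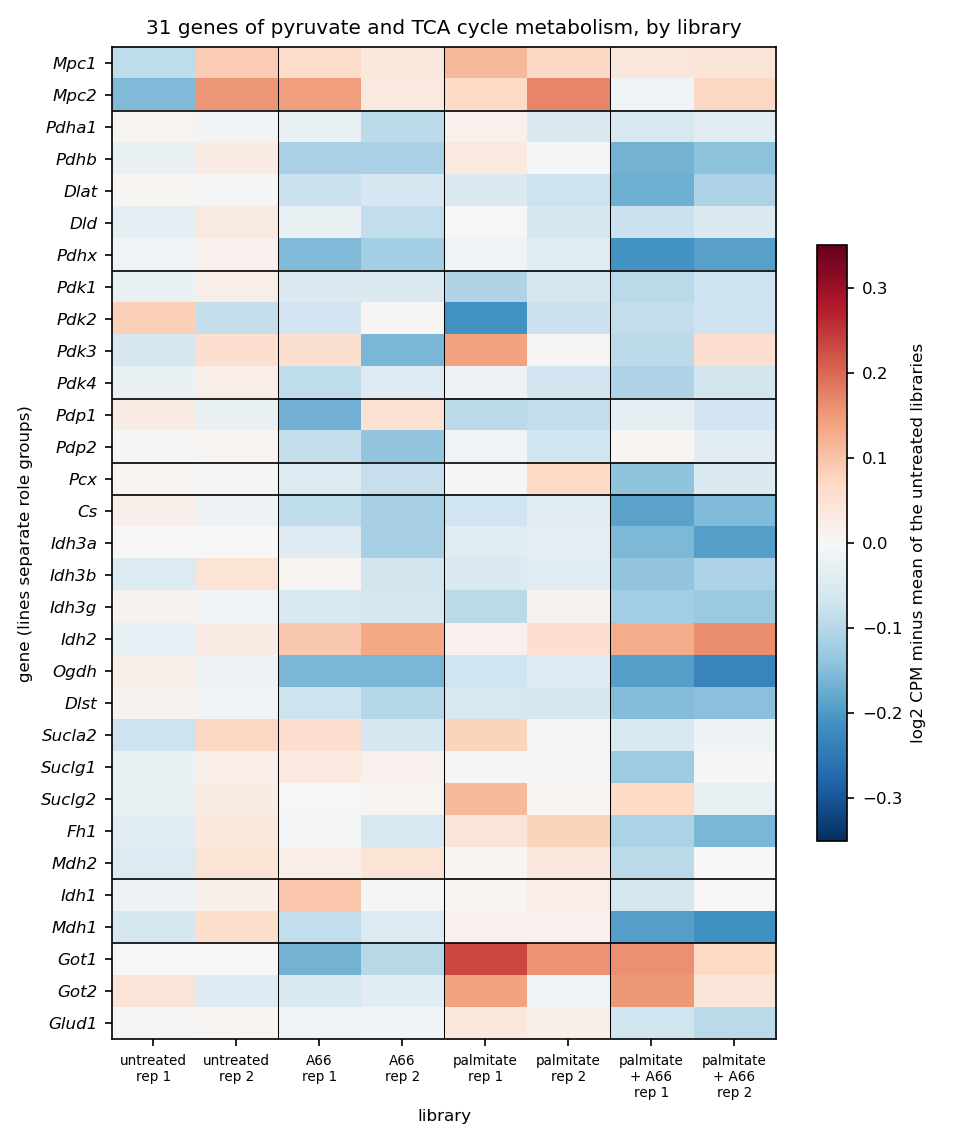
Log2 CPM of the 31 genes (rows, in role groups separated by lines) in the 8 libraries (columns), each minus the mean of the untreated libraries. Most rows are blue in the A66 columns and more so in those of palmitate plus A66, Idh2 is red in all 4 of these, and Got1 is red in the 4 columns with palmitate.

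A66 in cells without palmitate was compared with untreated cells to ask what blocking p110α does to these genes. By edgeR's quasi-likelihood test with adjustment over the 14158 genes tested, 1 of the 31 genes passed an adjusted p of 0.05, Ogdh, which was lower, beside 1.84% of all genes in either direction, 1.07% higher and 0.77% lower. At an unadjusted p under 0.05 there were 7 of the 31, against 12.8% of all genes. Of the 31, 24 had a log2 fold change below 0, with a median of -0.05 (all genes, -0.00106). In 15 of the 31 both A66 libraries were below both untreated libraries, against 22.3% of all genes, and in 1, Idh2, both were above, against 20.3%. The summed adipocyte markers were higher in both A66 libraries (8228 and 7825 CPM) than in both untreated libraries (7606 and 7788 CPM). Among the marker genes the smallest adjusted p was that of Slc2a4 (log2 fold change -0.15, adjusted p = 0.0659). The part of the markers was not tested.

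Ogdh (ENSMUSG00000020456, chr11:6291633-6356642, plus strand, GRCm38) was at 314 and 306 CPM in untreated cells and at 277 and 277 CPM with A66. The groups did not overlap, and the A66 libraries were nearly equal. The log2 fold change was -0.16 (SE 0.039, adjusted p = 0.0367), so the mRNA fell by 10.3%. Leaving out either A66 library left the fold change in place and ended the call, with adjusted p = 0.336 without replicate 1 and 0.327 without replicate 2. Its partner Dlst went from 227 and 223 CPM to 214 and 209.8 CPM, without overlap, and did not pass (log2 fold change -0.08, unadjusted p = 0.0489, adjusted p = 0.387).

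The pyruvate dehydrogenase complex had all 5 log2 fold changes below 0, from -0.13 to -0.05, and none of them passed the adjusted test. The largest was that of Pdhx, which anchors the lipoamide dehydrogenase in the complex, at 80.0 and 81.6 CPM in untreated cells and 72.5 and 74.4 CPM with A66 (log2 fold change -0.13, SE 0.045, adjusted p = 0.161). Pdhb, a catalytic subunit, was at 227 and 236 CPM and at 214 and 214 CPM, also without overlap. Pdhb passed the adjusted test when untreated replicate 1 was left out. The transaminase Got1 was at 79.3 and 79.3 CPM in untreated cells and 70.7 and 74.2 CPM with A66 (log2 fold change -0.13, SE 0.046, adjusted p = 0.201).

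Idh2 went the other way and is singled out here after its values were seen. This enzyme makes NADPH in mitochondria from isocitrate. It was at 218 and 226 CPM in untreated cells and 237 and 244 CPM with A66, without overlap. Its log2 fold change was 0.12 (SE 0.041, unadjusted p = 0.00871, adjusted p = 0.179). It passed the adjusted test, as did Mpc2, in the fit without untreated replicate 2. The pyruvate carrier genes also had positive values, 0.05 for Mpc1 and 0.08 for Mpc2, but untreated replicate 1 was low for both, with Mpc2 at 38.4 CPM against 47.6 CPM in replicate 2, and the groups overlapped.

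In cells that also received palmitate, 5 of the 31 genes were lower with A66, the most of the 5 comparisons made. Adding A66 to palmitate was compared with palmitate alone in a fit of all 8 libraries, in which 14587 genes were tested. The 5 were Mdh1, Fh1, Pdhb, Pdhx and Ogdh, beside 2.81% of all genes called in either direction, 0.973% higher and 1.84% lower. Before adjustment, the p of 11 of the 31 was under 0.05, against 14.4% of all genes. The median log2 fold change of the 31 was -0.08 (all genes, -0.000794), with 26 of 31 below 0. Both libraries with A66 were below both palmitate libraries in 17 genes of the list, against 22.4% of all genes, and above them in 2, Idh2 and Pdp1, against 21.9%.

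Mdh1 (ENSMUSG00000020321, chr11:21556787-21572367, minus strand), the cytosolic malate dehydrogenase of the malate-aspartate shuttle, was at 553 and 552 CPM with palmitate and 479 and 471 CPM with palmitate plus A66. Untreated cells were at 525 and 570.3 CPM and A66 alone at 516 and 529.6 CPM, so the 2 libraries with both agents were the lowest of the 8. The log2 fold change of A66 in palmitate-treated cells was -0.22 (SE 0.043, adjusted p = 0.00527), and the mRNA fell by 14.1%. Wdpcp overlaps Mdh1 on the opposite strand, with 4386 counts over the 8 libraries against 213002 of Mdh1.

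Fh1 (ENSMUSG00000026526, chr1:175600374-175625635, minus strand), which hydrates fumarate to malate, was at 138 and 141 CPM with palmitate and 124 and 119.9 CPM with palmitate plus A66. In untreated cells it was at 131 and 137 CPM and with A66 alone at 134 and 129 CPM. As for Mdh1, the cultures with both agents were the lowest. Its log2 fold change was -0.20 (SE 0.043, adjusted p = 0.0108), and Fh1 mRNA fell by 12.7%. Mitochondrial Mdh2, which acts on the product of fumarase, was at 374 and 383 CPM with palmitate and 349 and 372 CPM with both.

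Pdhb (ENSMUSG00000021748, chr14:8165996-8173025, minus strand) was at 237 and 230.4 CPM with palmitate and 206 and 209.7 CPM with palmitate plus A66. The log2 fold change was -0.17 (SE 0.040, adjusted p = 0.0202), and Pdhb mRNA fell by 11.04%. Pdhx (ENSMUSG00000010914, chr2:103021075-103073513, minus strand) was at 80.1 and 78.4 CPM with palmitate and 69.9 and 70.9 CPM with both agents. Neither gene's groups overlapped, and with palmitate alone both genes lay at log2 differences of 0.01 (Pdhb) and -0.03 (Pdhx) from untreated cells. The log2 fold change of Pdhx was -0.17 (SE 0.043, adjusted p = 0.0311), and its mRNA fell by 11.2%.

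Of the other subunits of the complex, Dlat went from 138 and 136 CPM to 127 and 133 CPM, and Pdha1 and Dld overlapped between the groups. Ogdh was lower again, at 295 and 300.02 CPM with palmitate and 271 and 264 CPM with palmitate plus A66 (log2 fold change -0.15, SE 0.039, adjusted p = 0.0333). In a fit of the 4 palmitate libraries alone, the form used for A66 without palmitate, it did not pass (adjusted p = 0.0608). These 4 libraries are not those of the comparison without palmitate, in which the log2 fold change was -0.16. Next in order came Idh3a, at 220.2 and 221 CPM with palmitate and 203 and 198 CPM with both, which did not pass (log2 fold change -0.14, adjusted p = 0.0757) and was called by DESeq2, without the filter on low counts, and with scaling by library size alone.

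The calls of A66 in palmitate-treated cells depended on single libraries. Without palmitate plus A66 replicate 2 none of the 5 genes passed, the nearest being Mdh1 at adjusted p = 0.0605, and without replicate 1 of that group Mdh1 and Fh1 did. Without palmitate replicate 2 Mdh1 alone remained, and without palmitate replicate 1 Mdh1 and Fh1 remained. Leaving out A66 replicate 1, which is in neither group, ended the calls of Ogdh (adjusted p = 0.0670) and Pdhx (0.0503), and leaving out A66 replicate 2 that of Ogdh (0.0646). All fold changes kept their direction in these fits.

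Other measures moved with this comparison. The share of counts from the mitochondrial genome was higher in both libraries with palmitate plus A66 than in both with palmitate, and the summed pre-adipocyte list was lower in both. Of the adipocyte markers, Slc2a4 (log2 fold change -0.23, adjusted p = 0.00762) and Cidec (-0.23, adjusted p = 0.0373) were also lower, as was the pre-adipocyte marker Col1a1 (-0.33, adjusted p = 0.000175). Their part in the changes of the 31 genes was not tested.

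**Figure D2:**
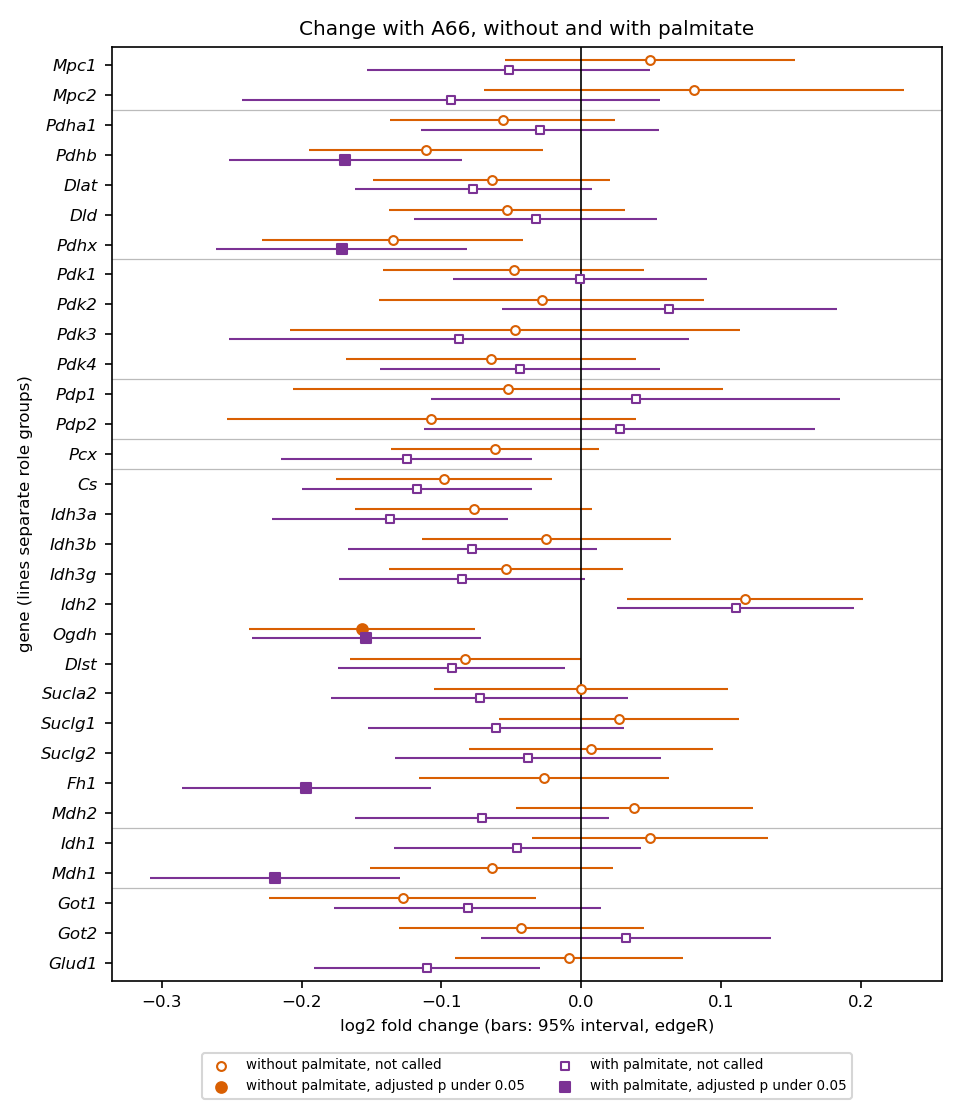
Log2 fold change of each gene with A66 (points) with its 95% interval from edgeR (bars), without palmitate (circles) and with palmitate (squares), with filled symbols for an adjusted p under 0.05. Ogdh is filled in both, Pdhb, Pdhx, Fh1 and Mdh1 with palmitate, and Idh2 lies to the right of 0 in both.

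Set side by side, the groups compared for A66 without and with palmitate have no library in common. The fit with palmitate also used the 4 libraries without it, so these tests are not fully separate. In 20 of the 31 genes both log2 fold changes were below 0, against 29.7% of all genes, and in 1, Idh2, both were above 0, against 28.9%. The other 10 had opposite signs, among them both carrier genes, both phosphatases and Pdk2. Idh2 was at 224 and 231 CPM with palmitate and 243 and 249 CPM with palmitate plus A66. These groups did not overlap, and its log2 fold change of 0.11 (SE 0.041, adjusted p = 0.175) was close to the 0.12 seen without palmitate and, like it, did not pass. The 4 libraries with A66 were thus the 4 highest for Idh2, 1 of the 31 genes, against 3.82% of all genes. They were the 4 lowest for 8 of the 31, Ogdh, Dlst, Pdhb, Pdhx, Cs, Idh3a, Pcx and Glud1, against 4.00% of all genes.

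Cs, the entry enzyme of the cycle, was at 732 and 714 CPM (untreated), 680.1 and 667 CPM (A66), 689 and 704 CPM (palmitate) and 635 and 649 CPM (both agents). It did not pass in either comparison of A66, with log2 fold changes of -0.10 (adjusted p = 0.233) without and -0.12 (adjusted p = 0.131) with palmitate, and DESeq2 called the latter. Pcx was at 1396 and 1382 CPM, 1342 and 1313 CPM, 1382 and 1456 CPM, and 1261 and 1342 CPM in the same order of groups. Its log2 fold change with A66 was -0.06 (adjusted p = 0.504) without and -0.12 (adjusted p = 0.143) with palmitate. The latter passed when no filter on low counts was used.

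Whether A66 acted differently on these genes with palmitate than without it was tested by the interaction term. None of the 31 genes passed in edgeR, 2 had an unadjusted p under 0.05 (all genes, 7.92%), and DESeq2 also called 0, beside 0.00686% of all genes in edgeR. The 2 were Fh1 and Mdh1, the genes with the largest falls in palmitate-treated cells. For Fh1 the difference of the log2 fold changes was -0.17 (95% interval -0.29 to -0.04, unadjusted p = 0.0116, adjusted p = 0.491). For Mdh1 it was -0.15 (95% interval -0.28 to -0.03, unadjusted p = 0.0204, adjusted p = 0.549). For Ogdh it was 0.01 (95% interval -0.11 to 0.12). The calls of Fh1, Mdh1, Pdhb and Pdhx with palmitate and not without it are therefore not shown to differ.

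Got1 was the gene of the list that passed the test with palmitate, and it was higher. Palmitate was compared with untreated cells to ask what a fatty acid load does to these genes, and with A66 present on both sides to ask the same in cells with blocked p110α. In the first comparison 1 of the 31 genes passed in edgeR, beside 1.17% of all genes in either direction, 0.631% higher and 0.542% lower. At an unadjusted p under 0.05 there were 2 of the 31, against 12.0% of all genes, so this count was below the background. The median log2 fold change was -0.00188, with 16 of 31 below 0. Of the marker genes, Col1a1 was higher (log2 fold change 0.25, adjusted p = 0.00331), and its part was not tested. Both palmitate libraries were above both untreated libraries in 3 genes, Fh1, Got1 and Glud1, against 20.4% of all genes, and below them in 8, against 20.2%.

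Got1 (ENSMUSG00000025190, chr19:43499752-43524605, minus strand) transfers the amino group between aspartate and glutamate in the cytosol. It was at 79.3 and 79.3 CPM in untreated cells and 93.2 and 88.4 CPM with palmitate. With palmitate the log2 fold change was 0.20 (SE 0.046, adjusted p = 0.0354), which is 14.5% higher. The call was lost without untreated replicate 1 (adjusted p = 0.168), without untreated replicate 2 (0.111), without palmitate replicate 1 (0.344) and with scaling by library size alone (0.0568), each time at a positive fold change. Without palmitate replicate 1 the log2 fold change was 0.16.

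With A66 on both sides, Got1 was at 70.7 and 74.2 CPM without palmitate and 88.5 and 83.2 CPM with it, again without overlap. Here the log2 fold change was 0.25 (SE 0.047, adjusted p = 0.00324), which is 18.5% higher, and the call was lost without A66 replicate 1 (adjusted p = 0.130) and without palmitate plus A66 replicate 1 (0.114). All 4 libraries with palmitate were above all 4 without it for Got1, as in 4.07% of all genes, and below them in 1 of the 31 genes, Pdk1, against 3.61%. The difference between the 2 palmitate effects was 0.05 on the log2 scale (95% interval -0.09 to 0.19). In this comparison 1 of the 31 genes passed, beside 2.73% of all genes in either direction, 1.46% higher and 1.27% lower. Without adjustment, 6 of the 31 had a p under 0.05, against 14.6% of all genes, a count near the background.

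Among the genes that did not pass with A66 on both sides, the mitochondrial transaminase Got2, named after its values were seen, was at 186 and 188 CPM with A66 and 215 and 199 CPM with both (log2 fold change 0.14, adjusted p = 0.144). It was at 199.6 and 187 CPM in untreated cells and 213 and 192 CPM with palmitate, where the groups overlapped. Mdh1 had a log2 fold change of -0.14 (SE 0.043, adjusted p = 0.0923). Both genes passed without the filter on low counts and in a fit of these 4 libraries alone, and DESeq2 called Mdh1. The median of the 31 was -0.05 (all genes, 0.000439), with 23 below 0. Both libraries with palmitate plus A66 were below both A66 libraries in 16 genes, against 23.4% of all genes, and above them in 3, Pdp2, Got1 and Got2, against 23.2%.

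Of the 8 adipocyte markers, Adipoq (log2 fold change -0.24, adjusted p = 0.00327), Plin1 (-0.28, adjusted p = 0.00234), Cidec (-0.32, adjusted p = 0.00351), Slc2a4 (-0.22, adjusted p = 0.0115) and Lipe (-0.21, adjusted p = 0.0426) were lower in this comparison, in which the mitochondrial genome's share was higher in both libraries. The summed pre-adipocyte list was lower in both libraries with both agents (3846 and 4100.1 CPM) than in both A66 libraries (4352 and 4245 CPM). The part of these measures in the values of the 31 genes was not tested. The groups compared for palmitate without and with A66 share no library, but both comparisons came from the same fit of all 8 libraries. They thus share the estimate of the spread. In 13 of the 31 genes both log2 fold changes were below 0, against 28.9% of all genes, in 5, Got1, Got2, Idh2, Pdk3 and Suclg2, both were above 0, against 29.3%, and 13 had opposite signs.

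**Figure D3:**
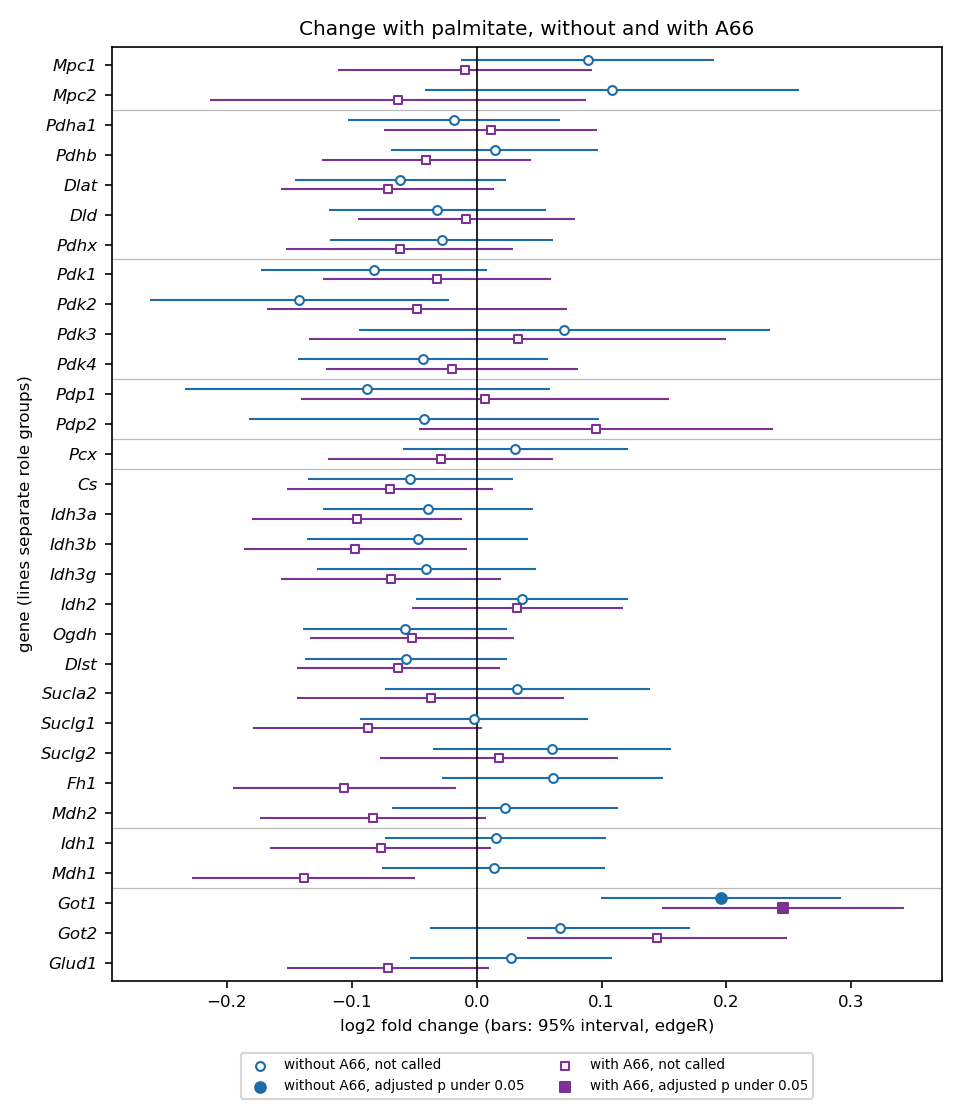
Log2 fold change of each gene with palmitate (points) with its 95% interval from edgeR (bars), without A66 (circles) and with A66 (squares), with filled symbols for an adjusted p under 0.05. Got1 is filled in both, at 0.20 and 0.25, and the other genes lie between -0.14 and 0.14.

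The switch of the pyruvate dehydrogenase complex, its kinases and phosphatases, showed no passing change. None of the 4 kinases and 2 phosphatases passed in any of the 5 comparisons in edgeR or DESeq2, and the 1 unadjusted p under 0.05 was that of Pdk2 with palmitate (log2 fold change -0.14, unadjusted p = 0.0223, adjusted p = 0.297). Pdk2 was at 59.7 and 53.1 CPM in untreated cells and 48.7 and 53.4 CPM with palmitate, and the groups overlapped. Pdk4 is known as a gene that fasting and fatty acids induce and insulin represses. Its untreated libraries were at 55.9 and 57.8 CPM and those of A66 at 53.4 and 55.1 CPM, and the palmitate libraries at 56.1 and 54.2 CPM without A66 and 52.7 and 54.3 CPM with it. Its level stayed within 52.7 and 57.8 CPM over all libraries. The 95% interval of its log2 fold change was -0.17 to 0.04 with A66 in cells without palmitate and -0.14 to 0.06 with palmitate.

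Pdk1 ranged from 73.4 to 80.4 CPM, Pdk3 from 21.2 to 26.1 CPM, Pdp1 from 23.2 to 26.9 CPM and Pdp2 from 20.6 to 22.7 CPM over the 8 libraries. The carrier genes ranged from 91.1 to 105 CPM (Mpc1) and from 38.4 to 48.2 CPM (Mpc2), with both lowest in untreated replicate 1. Of the remaining genes, none of which passed, Idh1 ranged from 449 to 499.9 CPM, Idh3b from 242 to 275 CPM, Idh3g from 161 to 178 CPM, Sucla2 from 102 to 113 CPM, Suclg1 from 134 to 149.9 CPM, Suclg2 from 124 to 137 CPM and Glud1 from 216 to 237 CPM. Idh3b overlaps Nop56 on the opposite strand, with 33374 counts over the 8 libraries against 104506 of Idh3b, and how strand was treated in counting is not given. For a gene of the list, the median half-width of the 95% interval was 0.09 on the log2 scale in each comparison of 2 groups, without adjustment for the number of genes, and the smallest change that passed the adjusted test was that of Ogdh, -0.15.

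**Figure D4:**
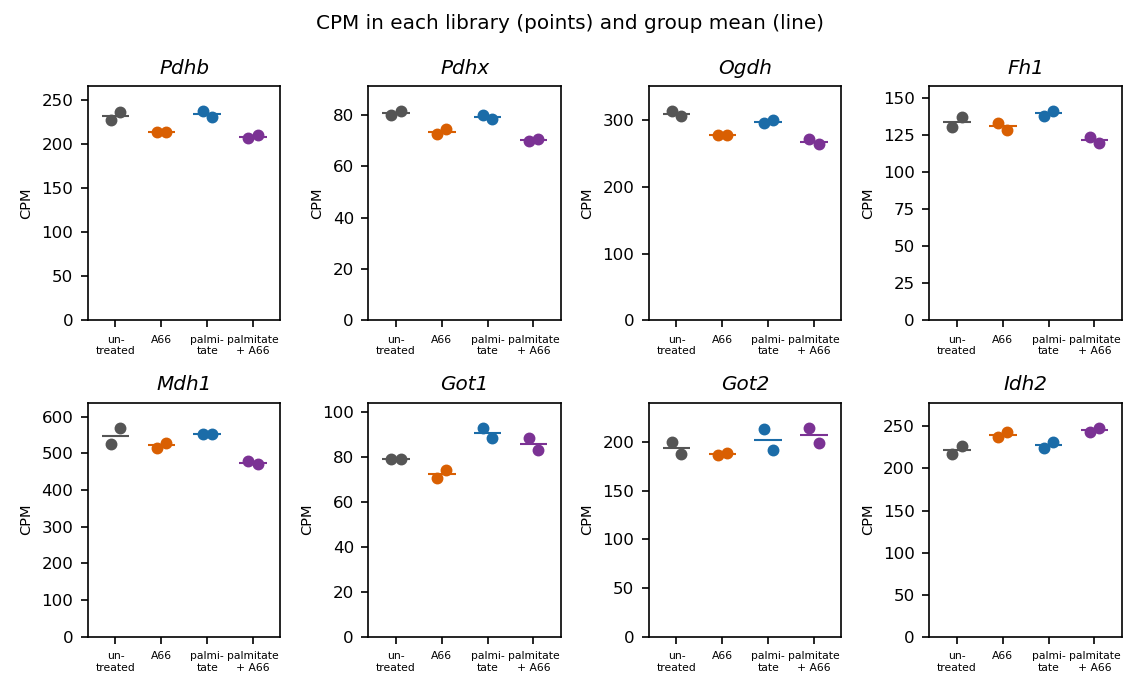
CPM of 8 genes in each library (points) with the group mean (line), on axes that start at 0. Pdhb, Pdhx, Fh1 and Mdh1 are lowest with palmitate plus A66, Ogdh is lower in the 4 libraries with A66, Got1 is higher in the 4 with palmitate, and Idh2 is higher in the 4 with A66.

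A list of 26 genes next to the pathway (succinate dehydrogenase, malic enzymes, citrate and dicarboxylate carriers, alanine transaminases, glutamine enzymes and others) was read in the same fits, and 25 were tested. With A66 alone 3 of the 25 passed, all lower (all genes, 0.77% lower), and with A66 in palmitate-treated cells 3 passed, all lower (all genes, 1.84% lower). With palmitate alone 2 were higher and 1 lower (all genes, 0.631% and 0.542%), and with palmitate in A66-treated cells 4 were higher and 3 lower (all genes, 1.46% and 1.27%). No gene of the 25 passed for the interaction.

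Genes of citrate export and cleavage rose with palmitate. Acly, which cleaves exported citrate to acetyl-CoA in the cytosol, was at 438 and 438 CPM (untreated), 394 and 401 CPM (A66), 581 and 569 CPM (palmitate) and 538 and 538 CPM (both agents). Its log2 fold change with palmitate was 0.39 (SE 0.039, adjusted p = 2.09e-06) and, with A66 on both sides, 0.44 (SE 0.039, adjusted p = 2.14e-07). The mitochondrial citrate carrier gene Slc25a1 was at 197 and 208 CPM (untreated), 185 and 173 CPM (A66), 232 and 243 CPM (palmitate) and 228 and 228 CPM (both agents). It was higher with palmitate by 0.23 (adjusted p = 0.00758) and 0.35 (adjusted p = 3.43e-05) and lower with A66 in cells without palmitate by a log2 fold change of -0.18 (adjusted p = 0.0387). In palmitate-treated cells its log2 fold change with A66 was -0.06 (adjusted p = 0.560), which did not pass. Me1, the cytosolic malic enzyme, was higher with palmitate in A66-treated cells (log2 fold change 0.19, adjusted p = 0.0108), as was Pck2, mitochondrial phosphoenolpyruvate carboxykinase (0.18, adjusted p = 0.0284).

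Slc25a10, a carrier that exchanges malate and succinate for phosphate, was at 229 and 253 CPM with palmitate and 191 and 189 CPM with palmitate plus A66 (log2 fold change -0.34, adjusted p = 0.000213). The alanine transaminase gene Gpt was lower with A66 both without palmitate (log2 fold change -0.26, adjusted p = 0.0476) and with it (-0.45, adjusted p = 0.00654), from 33.0 and 33.6 CPM to 29.5 and 25.8 CPM in the former. Its mitochondrial counterpart Gpt2 was lower with A66 alone, at 126 and 128 CPM against 146 and 145 CPM (log2 fold change -0.20, adjusted p = 0.0111). Sdhc, a membrane anchor of succinate dehydrogenase, was lower with A66 in palmitate-treated cells (-0.17, adjusted p = 0.0499). Glul, glutamine synthetase, was lower with palmitate by log2 fold changes of -0.30 (adjusted p = 0.00343) without and -0.26 (adjusted p = 0.00635) with A66, and Pck1, the cytosolic carboxykinase of glyceroneogenesis, by -0.56 (adjusted p = 0.00442) in A66-treated cells. In that last comparison Slc25a10 was lower too (-0.22, adjusted p = 0.00622).

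The calls of Acly with palmitate, of Slc25a1 with palmitate in A66-treated cells and of Slc25a10 with A66 in palmitate-treated cells held in every alternative run. In DESeq2, Gpt did not pass with A66 without palmitate (adjusted p = 0.110) or with it (0.0995), and with palmitate in A66-treated cells neither Pck1 (0.206) nor Glul (0.0631) did. Except for the calls that held in every alternative, leaving out 1 library ended each linked-gene call at least once. With A66 alone, Slc25a1 was lost without untreated replicate 2 or either A66 library, Gpt2 without either A66 library and Gpt without A66 replicate 2. The log2 fold change of Gpt was then -0.17. With palmitate alone, Slc25a1 and Glul were lost without untreated replicate 1, and Glul also without palmitate replicate 1. In palmitate-treated cells, Gpt was lost without palmitate replicate 2 or palmitate plus A66 replicate 1, and Sdhc without any 1 of the 6 libraries that had A66 or palmitate. In A66-treated cells, Me1 and Pck2 were lost without any 1 of the 4 libraries compared, and Pck1, Glul and Slc25a10 without A66 replicate 1 or palmitate plus A66 replicate 1. The log2 fold change of Glul there was -0.16 without A66 replicate 1.

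**Figure D5:**
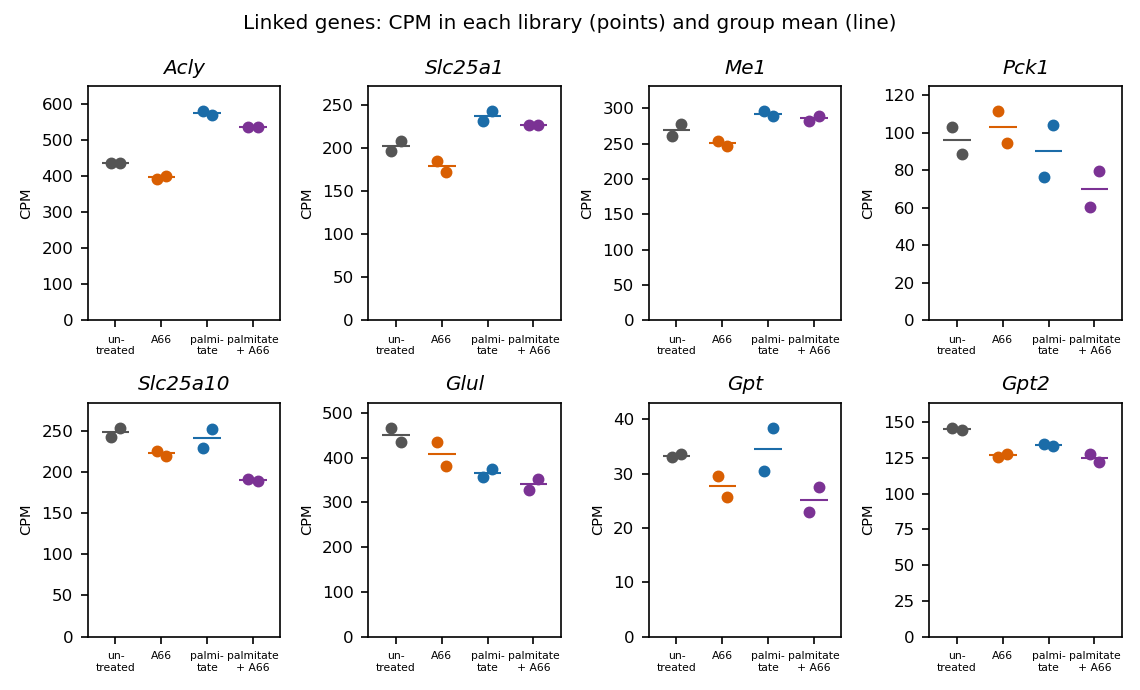
CPM of 8 linked genes in each library (points) with the group mean (line), on axes that start at 0. Acly and Slc25a1 are higher in all 4 libraries with palmitate, Slc25a10 is lowest with palmitate plus A66, and Glul is lower in all 4 libraries with palmitate.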

How the data were processed

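RNA of 8 cultures of 3T3-L1 adipocytes was sequenced from 4 groups of 2, with a stranded poly(A) kit. According to the submitters' processing notes and the methods, the authors aligned reads with TopHat2 (v2.0.11) to GRCm38, counted them per Ensembl gene with HTSeq and deposited these raw counts, without normalisation, 1 column a library. The strand setting, the annotation release and the treatment of reads that match several genes are not given in the sources used here, so counts of genes that overlap another on the opposite strand could mix both, and counts of genes with near-identical copies could be split. The deposited table also holds the authors' DESeq2 output (mean normalised count, log2 fold change, its standard error, Wald statistic, p-value and adjusted p-value), which was not used.

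Samples were grouped by the treatment in their labels. Coordinates and transcript lengths came from GENCODE M21 (GRCm38). Symbols came from a separate list of gene names, which named 42462 of the 43629 genes, and 327 genes without a symbol had counts. TPM was computed from the counts with the median length of the APPRIS principal transcripts of a gene. The 31 genes, the linked genes, the marker lists and the rule for named genes were chosen with earlier results of these data known. That rule gives full statistics for genes of the list that passed in a comparison and, for a role group with no such gene, for the gene with the smallest p. Differences were tested in R 4.3.3 with edgeR 4.0.16 (TMM, filterByExpr with a minimum count of 10, quasi-likelihood test, two-sided, Benjamini-Hochberg adjustment over all genes tested, called at an adjusted p of 0.05). A66 against untreated cells was fitted on the 4 libraries without palmitate, and the other comparisons on all 8 libraries. Standard errors are the log2 fold change divided by the square root of F. The p-values measure the spread between cultures of 1 cell line. The scripts were tested on simulated data.

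The tests of the listed genes and the counts of all genes called were recomputed under alternatives. The calls of the linked genes were added to these after seeing the data. The alternatives were RLE normalisation, library size as the sole scaling and the Wald test in DESeq2 1.42.0. Others kept all genes, or only those with 10 or more counts in each library. The fit of A66 against untreated cells was run on all 8 libraries instead of 4. The other comparisons of 2 groups were run on 4 instead of 8, which was not done for the interaction. Further alternatives blocked replicate numbers, removed a transcript length trend (loess, span 0.4), and left out each library in turn.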

Additional observations from a re-analysis of the deposited data

How the results depend on the processing

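Of 124 values of the 8 called fold changes of the listed genes under the alternatives, 97 kept their direction and their call, 27 kept their direction and lost the call, and 0 reversed. Of the losses, 25 came from leaving out a library and 1 from scaling by library size alone, which left 0 listed genes called for palmitate alone. With A66 on both sides, Got1 still passed under that scaling (adjusted p = 0.00614). Another 1 came from a fit of the 4 palmitate libraries alone, which ended the call of Ogdh with A66 (adjusted p = 0.0608). For the losses with all libraries kept the cause was not tested. With palmitate in A66-treated cells the number of listed genes called rose from 1 to 2 in DESeq2, to 3 without the filter on low counts and to 3 in the fit of 4 libraries, where 689 of all genes were called instead of 398. Without the filter the numbers of all genes called were 459 (A66 alone), 396 (palmitate alone), 652 (A66 with palmitate), 664 (palmitate with A66) and 91 (interaction), against 261, 171, 410, 398 and 1. For the interaction they were 2 with scaling by library size alone, 8 in DESeq2 and 2 after removal of the transcript length trend, with 0 listed genes in each.

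Leaving out 1 library at a time moved the listed genes called from 0 to 3 for A66 alone, 0 to 1 for palmitate alone, 0 to 5 for A66 with palmitate and 0 to 1 for palmitate with A66, and all genes called from 98 to 635, 71 to 245, 147 to 494, 107 to 502 and, for the interaction, 0 to 10. Where an arm was left with 1 library, it was taken to vary like the others. Scaling by library size alone shifted the median of all genes by at most 0.02 (log2) and moved the share of lower genes among all called from 41.8% to 55.0% (A66 alone), from 46.2% to 55.9% (palmitate alone), from 65.4% to 76.6% (A66 with palmitate) and from 46.5% to 59.6% (palmitate with A66), so that most called genes were lower in place of higher in all but the third of these. For palmitate alone the numbers went from 92 higher and 79 lower to 83 higher and 105 lower. Of 244 values of the 16 linked-gene calls, in alternatives chosen after seeing the data, 207 kept the call, 37 lost it and 0 reversed. Of these losses, 31 came from leaving out a library, 4 from DESeq2, 1 from scaling by library size alone (Pck2, adjusted p = 0.0565) and 1 from the fit of all 8 libraries (Gpt with A66 alone, adjusted p = 0.194). Same-numbered deviations correlated between -0.11 and 0.13 over 11144 genes. The labels do not say whether replicate numbers pair the cultures, and these weak correlations cannot settle it. A replicate block left 1, 1, 5, 1 and 0 listed genes called. Of all genes it called 282, 195, 448, 438 and 3, instead of 261, 171, 410, 398 and 1. With 2 libraries a group, the smallest change of a listed gene that passed was -0.15 (log2, Ogdh), and changes of the same size or smaller could be missed.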
